A study of Mus musculus with 8 samples.

Results

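The 4 libraries of mouse ES cells with both Tbxt alleles edited, delE6/delE6 and insASAY/insASAY, were compared with the 4 libraries of cells that keep at least 1 unedited allele, wild-type and delE6/+, over all genes. Members of the comparison were genes whose 4 values in homozygous-edited cells lay all above or all below the 4 values of the other cells. Of 16314 genes tested, 5569 did so, and 2184 of these also passed the test for a difference between the arms. In homozygous-edited cells the separated genes that were higher included paraspeckle and splicing factors (Pspc1, Sfpq, Srsf2), glycolytic genes (Pdk1, Ldha) and many zinc finger genes. Those that were lower included Tbxt itself, Tbx3, clock genes (Per1, Tef), endoplasmic reticulum chaperones (Hspa5, Calr), axon guidance genes and collagen and laminin genes.

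The parental ES cells were MK6, of C57BL/6J mouse origin, and poly(A) RNA was sequenced at day 1 of in vitro differentiation. For differentiation, cells were grown without feeder cells in N2/B27 medium and treated with CHIR99021, an inhibitor of the kinase GSK3 that activates Wnt signalling, so this treatment is common to both arms. The delE6/delE6 cells lack exon 6 of Tbxt on both alleles, and their 2 libraries come from different clones. The insASAY/insASAY cells carry a human AluY element in intron 6 and a human AluSx1 element in intron 5 on both alleles, keep exon 6, and were made on feeder fibroblasts with a selection marker that was later removed, whereas the exon 6 deletions were made without feeders. The delE6/+ cells lack exon 6 on 1 allele, and wild-type cells carry no edit. Each of the 4 lines has 2 libraries, and for the 3 lines other than delE6/delE6 the number of clones behind them is not given in the sources used here. The comparison asks which transcripts track the editing of both alleles, whichever edit was made.

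Tbxt (also called Brachyury or T) encodes a T-box transcription factor that is switched on by Wnt signalling in the primitive streak. It drives mesoderm formation, notochord development and the growth of the tail. Skipping of its exon 6 gives a shorter protein, and a pair of inverted Alu elements around that exon can pair in the transcript and favour the skipping.

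Exon 6 is shown because it is the part of Tbxt that the delE6 allele lacks. It is exon 6 of 8 of the protein-coding Tbxt transcript (GENCODE M21), 174 bases or 58 codons on the plus strand of GRCm38, at chr17:8438616-8438789. Capitals mark exon 6, and lower-case letters mark the 20 bases of exon 5 before it and the 20 bases of exon 7 after it. Removing the capitals leaves the reading frame intact.
Tbxt exon 6: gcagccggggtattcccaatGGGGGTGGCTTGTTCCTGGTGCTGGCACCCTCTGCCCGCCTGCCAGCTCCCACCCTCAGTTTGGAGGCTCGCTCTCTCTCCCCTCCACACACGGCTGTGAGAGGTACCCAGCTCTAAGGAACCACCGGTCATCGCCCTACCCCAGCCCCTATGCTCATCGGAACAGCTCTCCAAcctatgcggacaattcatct
The counts used here are per gene and do not separate transcripts with and without this exon.

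Reads assigned to genes ran from 24618587 to 28445952 per library, and TMM scaling factors from 0.974 to 1.034. Values are given as CPM, reads of a gene scaled to a common library size with these factors, and a log2 fold change is homozygous-edited over other. A value in parentheses without a unit, after a gene, is its log2 fold change. The 12 core pluripotency genes listed were all expressed, with a summed level of 2041 to 2574 CPM per library, while the 15 streak and mesoderm genes tested summed to 41.5 to 48.9 CPM. Replicate libraries of wild-type, delE6/+ and insASAY/insASAY differed by 2.83 to 3.49 times the sampling variance (chi-square per degree of freedom), and those of delE6/delE6 by 11.46 times. The delE6/delE6 replicate 1 library stood apart from the rest of its arm. Among the 1128 genes that were separated above and passed the test it was the homozygous-edited library nearest the other arm for 912, or 80.9%, and among the 1056 separated below for 735, or 69.6%. Counting error and the spread between libraries enter every test below, but whether 4 libraries from 2 lines stand for the editing of both alleles cannot be told from them, since the lines also differ in clone and in edit.

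**Figure D1:**
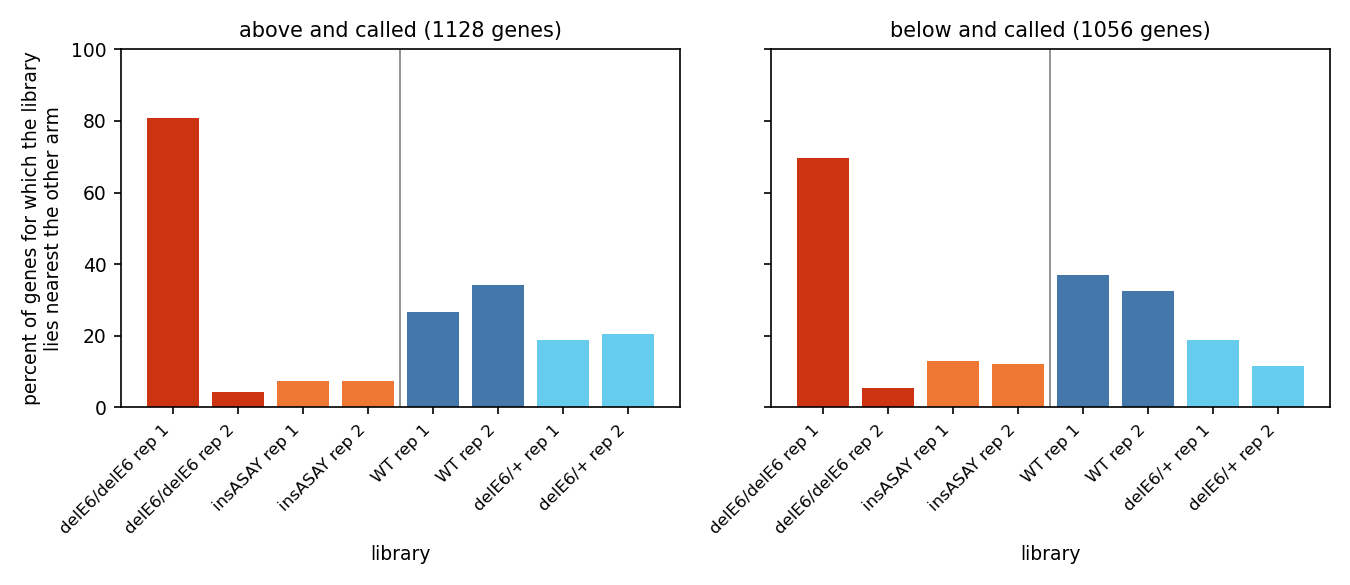
Each bar gives the percent of separated and called genes for which that library was the nearest of its arm to the other arm, for genes above (left) and below (right) in homozygous-edited cells. The homozygous-edited libraries are in red and orange, the others in blue. delE6/delE6 replicate 1 takes 80.9% and 69.6% of the genes, and no other homozygous-edited library takes more than 13%.

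In the quasi-likelihood test of edgeR, a gene was called when its Benjamini-Hochberg adjusted p was below 0.05 and its log2 fold change exceeded 0.5 in size. By this rule 1266 genes were higher in homozygous-edited cells, 7.76% of those tested, and 1216 were lower, 7.45%. The 4 values lay wholly above the other 4 for 2818 genes (17.3%) and wholly below for 2751 (16.9%). Both criteria were met by 1128 genes above (6.91%) and 1056 below (6.47%), which are called separated and called from here on. The separated genes that were not called numbered 3385, with 1690 above and 1695 below, and 298 genes were called without being separated. Leaving out delE6/delE6 replicate 1, which stood apart, gave 1513 genes called higher and 1463 lower, and 1489 above and 1440 below by both criteria.

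The size of the separation varied. The gap between the nearest libraries of the arms had a median of 0.28 on the log2 scale for separated and called genes above and 0.267 below, with maxima of 1.52 and 1.61. It was over 0.5 for 174 genes above and 153 below, and under 0.1 for 135 and 150. In size, the log2 fold change had a median of 0.77 above and 0.76 below, and 297 and 267 genes changed more than 2-fold. A limit applies to every count here. When the counts of each line were summed, so that 2 lines stood against 2, the edgeR quasi-likelihood test called 0 genes, the smallest Benjamini-Hochberg adjusted p was 0.094, and 1941 genes higher and 1841 lower had an unadjusted p under 0.05. An exact permutation of 4 libraries against 4 cannot give a two-sided p under 0.0286, and of 2 lines against 2 not under 0.333. Without the 2 insASAY/insASAY libraries only 544 genes were called higher and 462 lower.

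Once Gm and Rik gene models and genes averaging under 2 CPM were set aside, the widest gap above was that of Slc10a3, a member of the bile acid transporter family (ENSMUSG00000032806, chromosome X of GRCm38, 74369217 to 74373349, minus strand). For Slc10a3, homozygous-edited libraries held 3.52 and 3.75 CPM (delE6/delE6) and 3.87 and 4.49 CPM (insASAY/insASAY), against 1.12 and 1.53 in wild-type and 1.33 and 1.35 in delE6/+ cells. Slc10a3 thus differed by 1.55 on the log2 scale, with a standard error of 0.153 and a Benjamini-Hochberg adjusted p = 0.000835 in edgeR. All values of the other cells were under 2 CPM, and all those of homozygous-edited cells over 3 CPM. Pspc1, a core protein of paraspeckles, the nuclear bodies that form on the RNA Neat1, also had one of the 15 widest gaps (ENSMUSG00000021938, chromosome 14 of GRCm38, 56720710 to 56778316, minus strand). The level of Pspc1 was 29.2 and 25 CPM in wild-type and 20.9 and 19.7 CPM in delE6/+ cells, and 57.6 and 70.9 CPM in delE6/delE6 and 77.5 and 74.8 CPM in insASAY/insASAY cells. The difference for Pspc1 was 1.56 on the log2 scale (standard error 0.136, adjusted p = 0.000688, edgeR with Benjamini-Hochberg). Srxn1 encodes sulfiredoxin, which restores oxidized peroxiredoxins. Srxn1 was at 58.4 and 64.6 CPM in wild-type, 33.6 and 33.2 in delE6/+, 121 and 192 in delE6/delE6 and 154 and 153 in insASAY/insASAY libraries. Srxn1 had a fold change of 1.71 on the log2 scale (standard error 0.234), with an edgeR adjusted p = 0.00138 (Benjamini-Hochberg). Both its delE6/+ values lay under both wild-type values. Zdbf2 is an imprinted gene expressed from the paternal allele. For Zdbf2, homozygous-edited libraries held 73.8 and 112 CPM (delE6/delE6) and 116 and 118 CPM (insASAY/insASAY), against 36.3 and 35.5 in wild-type and 41 and 40 in delE6/+ cells. On the log2 scale Zdbf2 changed by 1.46 (standard error 0.14, adjusted p = 0.000784 by edgeR and Benjamini-Hochberg). Its delE6/delE6 replicate 1 value was the lowest of the arm and still over the highest value of the other arm.

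The remaining genes of the 15 widest gaps above had these roles. Mir22hg is the host transcript of miR-22, and it had 4.74 to 6.43 CPM in homozygous-edited and 0.872 to 2.13 CPM in other libraries. Capn11 encodes a calpain protease, and it had 6.53 to 11.6 CPM in homozygous-edited and 2.02 to 2.98 CPM in other libraries. Ehd2 encodes an ATPase that shapes caveolar membranes, and it had 6.44 to 10 CPM in homozygous-edited and 1.71 to 3.21 CPM in other libraries. Each of these transcripts was under 12 CPM in every library. Ap5b1 encodes a subunit of the AP-5 adaptor complex of endosomes, and it had 6.2 to 8.68 CPM in homozygous-edited and 2.24 to 3.11 CPM in other libraries. Fut1 encodes a fucosyltransferase that makes the H antigen, and it had 6.73 to 10.8 CPM in homozygous-edited and 2.33 to 3.43 CPM in other libraries. Fam83h, linked to keratin filaments and to enamel formation, was more abundant, and it had 18 to 34.4 CPM in homozygous-edited and 4.08 to 9.38 CPM in other libraries. Ngfr, the p75 receptor for neurotrophins, followed, and it had 38.2 to 61 CPM in homozygous-edited and 5.06 to 20.9 CPM in other libraries. In delE6/+ cells Ngfr was at 5.54 and 5.06 CPM, below both wild-type values of 16.5 and 20.9 CPM. Trmt12 takes part in making a modified base of phenylalanine tRNA, and it had 2.88 to 5.32 CPM in homozygous-edited and 1.06 to 1.55 CPM in other libraries. The log2 fold changes of these 8 genes ran from 1.55 to 2.10. The zinc finger gene Zfp882, the DNA-binding gene Jrk and the membrane protein gene Cmtm3 complete the 15, with log2 fold changes of 2.23, 1.80 and 1.28.

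Crispld2, which encodes a secreted cysteine-rich protein, had the widest gap below within the same limits (ENSMUSG00000031825, chromosome 8 of GRCm38, 119992438 to 120052793, plus strand). The level of Crispld2 was 3.21 and 3.35 CPM in wild-type and 3.79 and 3.35 CPM in delE6/+ cells, and 1.34 and 0.735 CPM in delE6/delE6 and 0.584 and 1.2 CPM in insASAY/insASAY cells. Between the arms Crispld2 changed by -1.83 in log2 units, with a standard error of 0.239 (edgeR adjusted p = 0.00121, Benjamini-Hochberg). The wild-type and delE6/+ values lay close to each other, between 3.21 and 3.79 CPM. Txnip encodes the thioredoxin-interacting protein, which restrains glucose uptake (ENSMUSG00000038393, chromosome 3 of GRCm38, 96557957 to 96561883, plus strand). Txnip was at 460 and 409 CPM in wild-type, 776 and 723 in delE6/+, 233 and 144 in delE6/delE6 and 203 and 213 in insASAY/insASAY libraries. This was a log2 fold change of -1.58 (standard error 0.223, edgeR adjusted p = 0.00152, Benjamini-Hochberg). Txnip lies on chromosome 3, whose genes had a median log2 fold change of 0.33 in delE6/+ over wild-type cells, and its delE6/+ values were the highest. Against wild-type alone Txnip differed by -1.21 in delE6/delE6 and -1.06 in insASAY/insASAY cells on the log2 scale. Lrp1 is an endocytic receptor for lipoproteins and many other ligands. For Lrp1, homozygous-edited libraries held 58.5 and 36.8 CPM (delE6/delE6) and 41.5 and 45.7 CPM (insASAY/insASAY), against 106 and 98.6 in wild-type and 108 and 103 in delE6/+ cells. Lrp1 thus differed by -1.19 on the log2 scale, with a standard error of 0.124 and a Benjamini-Hochberg adjusted p = 0.000838 in edgeR. Lrp1 differed little between wild-type and delE6/+ cells, by a log2 fold change of 0.04. Tef is a transcription factor of the PAR bZIP family, whose level follows the circadian clock. The level of Tef was 83.3 and 83.6 CPM in wild-type and 97.7 and 100 CPM in delE6/+ cells, and 49.3 and 38.8 CPM in delE6/delE6 and 40.6 and 41.9 CPM in insASAY/insASAY cells. The difference for Tef was -1.10 on the log2 scale (standard error 0.0945, adjusted p = 0.000688, edgeR with Benjamini-Hochberg). Its 4 values in homozygous-edited cells were all under 50 CPM, and the others all over 80 CPM.

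The other 11 genes of the 15 below had various roles. Adgrg1, an adhesion G protein-coupled receptor also called GPR56, is bound by collagen, and it had 1.68 to 2.23 CPM in homozygous-edited and 5.12 to 5.88 CPM in other libraries. Abcg1 exports cholesterol from cells, and it had 0.588 to 1.68 CPM in homozygous-edited and 3.38 to 4.65 CPM in other libraries. Pdgfrb, a receptor for platelet-derived growth factor, marks mesenchymal cells, and it had 2.31 to 2.76 CPM in homozygous-edited and 4.7 to 6.45 CPM in other libraries. Islr2 encodes a neuronal membrane protein with leucine-rich repeats, and it had 1.86 to 2.8 CPM in homozygous-edited and 4.73 to 6.69 CPM in other libraries. These 4 surface and transport genes were all under 7 CPM in each library. Sdk2, an adhesion protein of synapses, had the largest fold change among the 15. Sdk2 was at 9.38 and 6.82 CPM in wild-type, 37.1 and 33.5 in delE6/+, 3.89 and 2.68 in delE6/delE6 and 3.03 and 3.25 in insASAY/insASAY libraries. Sdk2 had a fold change of -2.76 on the log2 scale (standard error 0.534), with an edgeR adjusted p = 0.00479 (Benjamini-Hochberg). The delE6/+ values were far over the wild-type values (log2 fold change 2.12), and against wild-type alone Sdk2 differed by -1.31 in delE6/delE6 and -1.37 in insASAY/insASAY cells. Bhlha15 (Mist1) is a transcription factor of secretory cells, and it had 4.38 to 6.77 CPM in homozygous-edited and 11.7 to 15.8 CPM in other libraries. Naa11 encodes a catalytic subunit of the N-terminal acetyltransferase, and it had 3.38 to 7.01 CPM in homozygous-edited and 11.8 to 12.3 CPM in other libraries. Rsrp1, a gene for an arginine- and serine-rich protein, was more abundant, and it had 29.6 to 37.5 CPM in homozygous-edited and 67.8 to 72.8 CPM in other libraries. The GTPase gene Rhov, Fam234b and Gdap10 complete the 15, with log2 fold changes of -1.22, -1.31 and -1.30.

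**Figure D2:**
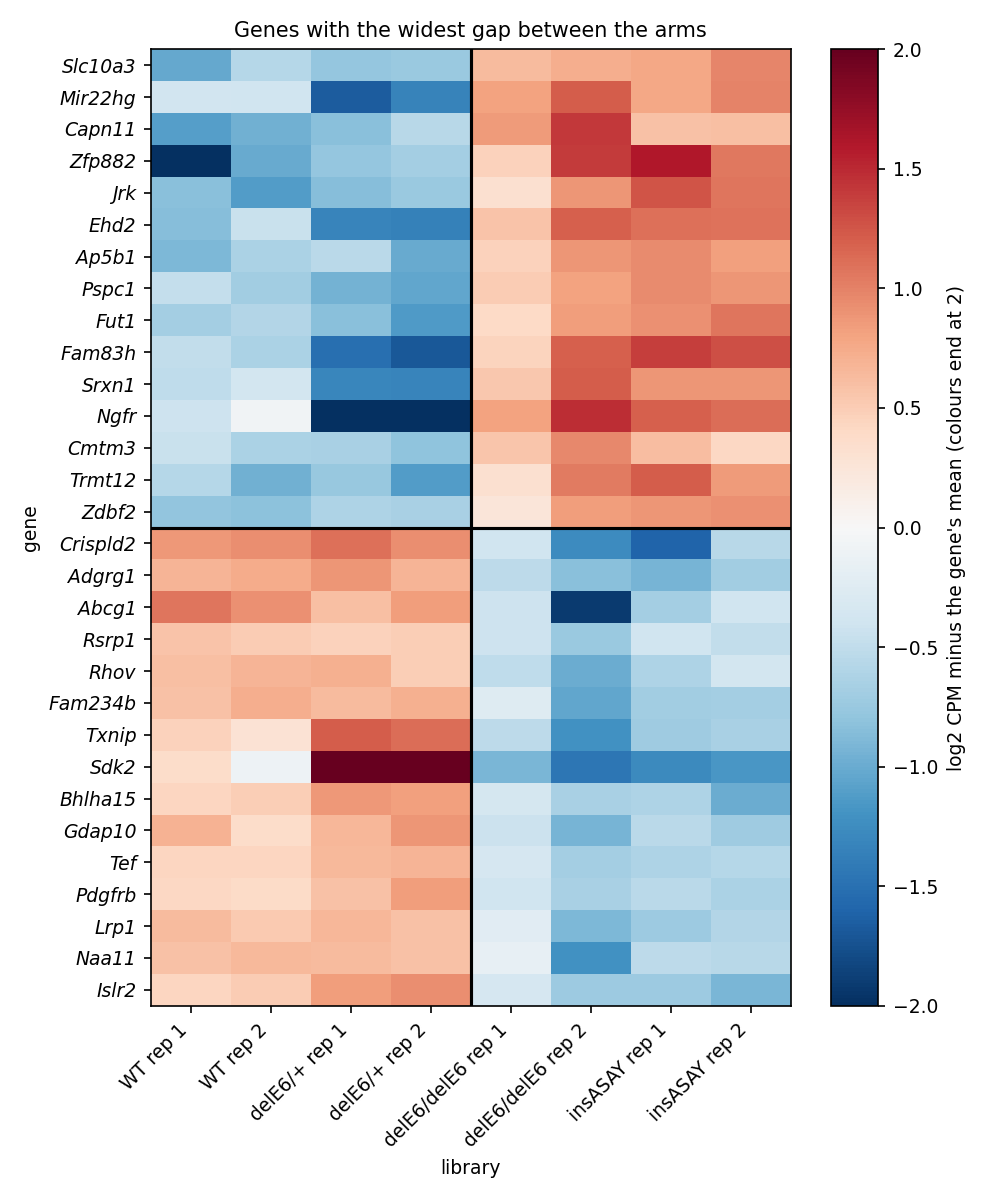
The colour gives log2 CPM minus the gene's mean over the 8 libraries (columns) for the 15 genes with the widest gap in each direction, leaving out Gm and Rik models and genes averaging under 2 CPM (rows, upper block above and lower block below in homozygous-edited cells). Vertical and horizontal lines part the arms and the directions, and delE6/delE6 replicate 1 is the homozygous-edited library nearest the other arm for 12 of 15 genes in each direction.

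Tbxt, the edited gene (ENSMUSG00000062327, chromosome 17 of GRCm38, 8434423 to 8442496, plus strand), was weakly expressed and lower in the homozygous-edited cells. Wild-type libraries held 47 and 42 reads on it, delE6/+ libraries 39 and 54, delE6/delE6 libraries 26 and 22, and insASAY/insASAY libraries 30 and 29. For Tbxt, homozygous-edited libraries held 1.05 and 0.808 CPM (delE6/delE6) and 1.09 and 1.06 CPM (insASAY/insASAY), against 1.7 and 1.57 in wild-type and 1.48 and 2.2 in delE6/+ cells. On the log2 scale Tbxt changed by -0.79 (standard error 0.192, adjusted p = 0.0126 by edgeR and Benjamini-Hochberg). The groups did not overlap, with 30 reads at most in one arm and 39 at least in the other. Reads from exon 6 cannot arise in delE6/delE6 cells and can in insASAY/insASAY cells, and their share of the difference was not tested. The call was lost without the 2 delE6/delE6 libraries (adjusted p = 0.0573) or without the 2 insASAY/insASAY libraries (adjusted p = 0.065), both by edgeR with Benjamini-Hochberg adjustment.

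Other genes of the streak were scarce. Wnt3a, a ligand that maintains Tbxt in the streak, had 2 to 9 reads per library, Msgn1, a Tbxt target of presomitic mesoderm, 0 to 2, and Mixl1, a streak homeobox gene, 5 to 29. All 3 failed the filter on low counts, and no fold change was computed. Mixl1 had 8 and 26 reads in delE6/delE6, 16 and 29 in insASAY/insASAY, 7 and 5 in wild-type and 7 and 6 in delE6/+ libraries, so the arms were separated in reads by 1 count only. Of 15 streak and mesoderm genes tested, 0 were separated and called above and 2 (13.3%) below, Tbxt and Hand1. Over all genes tested the shares were 6.91% and 6.47%. Hand1, at 1.09 to 2.09 CPM in homozygous-edited cells against 2.16 to 3.8 CPM in the other cells, lost its call when either wild-type library or either insASAY/insASAY library was left out (adjusted p = 0.0547 to 0.0644 by edgeR with Benjamini-Hochberg adjustment). The list's median log2 fold change was -0.39, against -0.01 over all genes.

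The T-box family to which Tbxt belongs had 4 of 12 tested genes (33.3%) separated and called below and 0 above. Over all genes tested the shares were 6.47% below and 6.91% above. The family's median log2 fold change was -0.39. Tbx3, which supports self-renewal of ES cells, was the most abundant of the 4 below. The level of Tbx3 was 63.2 and 57.5 CPM in wild-type and 44.5 and 43.7 CPM in delE6/+ cells, and 28.8 and 11.3 CPM in delE6/delE6 and 16.3 and 14.7 CPM in insASAY/insASAY cells. Between the arms Tbx3 changed by -1.56 in log2 units, with a standard error of 0.257 (edgeR adjusted p = 0.00263, Benjamini-Hochberg). Its wild-type values exceeded its delE6/+ values, and both lay over all homozygous-edited values. Tbx4, a regulator of hindlimb and lung, followed the same order at lower levels. Tbx4 was at 9.85 and 7.98 CPM in wild-type, 6.07 and 6.98 in delE6/+, 5.31 and 2.87 in delE6/delE6 and 3.03 and 2.99 in insASAY/insASAY libraries. This was a log2 fold change of -1.13 (standard error 0.227, edgeR adjusted p = 0.00567, Benjamini-Hochberg). Of the 12 tested genes within 1 Mb of Tbxt, only Sft2d1, a gene for a Golgi transport protein that was chosen after its values were seen, was separated and called. For Sft2d1, homozygous-edited libraries held 15.8 and 18.4 CPM (delE6/delE6) and 18.9 and 18.7 CPM (insASAY/insASAY), against 13.7 and 11.4 in wild-type and 10.8 and 11.4 in delE6/+ cells. It changed by 0.60 on the log2 scale. Tagap and Gm17748 were separated but not called, and the log2 fold changes of the 12 ran from -0.74 to 0.74.

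Among 22 Wnt targets and feedback genes, 1 (4.55%) was separated and called above and 3 (13.6%) below, with a median log2 fold change of -0.11. Over all genes tested these shares were 6.91% and 6.47%, so so few genes say little about the pathway. Sp5, a transcription factor that Wnt signalling induces directly, was the one above. The level of Sp5 was 9.99 and 9.73 CPM in wild-type and 19.7 and 19.3 CPM in delE6/+ cells, and 26.7 and 56.6 CPM in delE6/delE6 and 46.2 and 47.5 CPM in insASAY/insASAY cells. Sp5 thus differed by 1.59 on the log2 scale, with a standard error of 0.289 and a Benjamini-Hochberg adjusted p = 0.00363 in edgeR. Wild-type cells had the lowest values, delE6/+ cells lay between, and homozygous-edited cells had the highest. Rnf43, which removes Wnt receptors from the surface, was below. Rnf43 was at 8.55 and 7.83 CPM in wild-type, 10.2 and 9.96 in delE6/+, 4.86 and 3.67 in delE6/delE6 and 3.79 and 4.45 in insASAY/insASAY libraries. The difference for Rnf43 was -1.12 on the log2 scale (standard error 0.135, adjusted p = 0.000975, edgeR with Benjamini-Hochberg). Sfrp1, a secreted Wnt inhibitor, was below too, at 13.2 to 22.1 CPM in homozygous-edited cells. It was at 31.2 and 26.7 CPM in wild-type and at 58 and 54 CPM in delE6/+ cells. Against wild-type alone Sfrp1 differed by -0.78 in delE6/delE6 and -0.40 in insASAY/insASAY cells on the log2 scale. The call of Sfrp1 was lost without the 2 libraries of delE6/delE6, of insASAY/insASAY or of delE6/+. Fzd7, a Wnt receptor, was the remaining one below, with a log2 fold change of -0.52 that fell under the threshold, to -0.46 to -0.50, without either delE6/delE6 library or either delE6/+ library.

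Since the cells were exposed to a Wnt activator and Tbxt is itself a target, the promoters of Sp5 and Tbxt are shown, as the 250 bases before the start of the gene (RefSeq, GRCm38.p6, plus strand for both). Sp5 lies at chr2:70474673-70474922 and Tbxt at chr17:8434173-8434422. Capitals mark the TCF/LEF motif, searched as CTTTGAT or CTTTGAA on both strands.
Sp5: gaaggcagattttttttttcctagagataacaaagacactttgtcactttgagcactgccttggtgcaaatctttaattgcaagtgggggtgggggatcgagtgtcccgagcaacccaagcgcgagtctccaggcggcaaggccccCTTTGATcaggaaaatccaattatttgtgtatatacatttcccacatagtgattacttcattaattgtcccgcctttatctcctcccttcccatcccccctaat
Tbxt: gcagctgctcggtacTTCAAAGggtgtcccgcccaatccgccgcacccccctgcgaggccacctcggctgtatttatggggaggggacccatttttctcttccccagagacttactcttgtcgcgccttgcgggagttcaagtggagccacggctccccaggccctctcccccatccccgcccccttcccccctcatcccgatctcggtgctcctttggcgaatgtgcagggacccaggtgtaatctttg
The match lies 104 bases before the start in Sp5 and 235 bases before it in Tbxt, where it is on the opposite strand. Of 11238 tested genes with a promoter in this table, 6.26% hold the motif, against 5.93% of 827 separated and called genes above and 5.51% of 744 below. The T-box motif TCACACCT, searched on both strands, was held by 0.81% of tested genes, 0.726% of those above and 0.806% of those below. Fam234b, one of the widest gaps below, holds it 130 bases before one of its annotated starts (chr6:135197850-135198099, plus strand).
Fam234b: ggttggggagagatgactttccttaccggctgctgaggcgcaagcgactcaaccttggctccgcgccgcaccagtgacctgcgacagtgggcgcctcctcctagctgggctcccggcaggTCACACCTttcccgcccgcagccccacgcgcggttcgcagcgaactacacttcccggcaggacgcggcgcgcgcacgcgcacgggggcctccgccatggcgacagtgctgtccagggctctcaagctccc
A match is a description of the letters only.

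**Figure D3:**
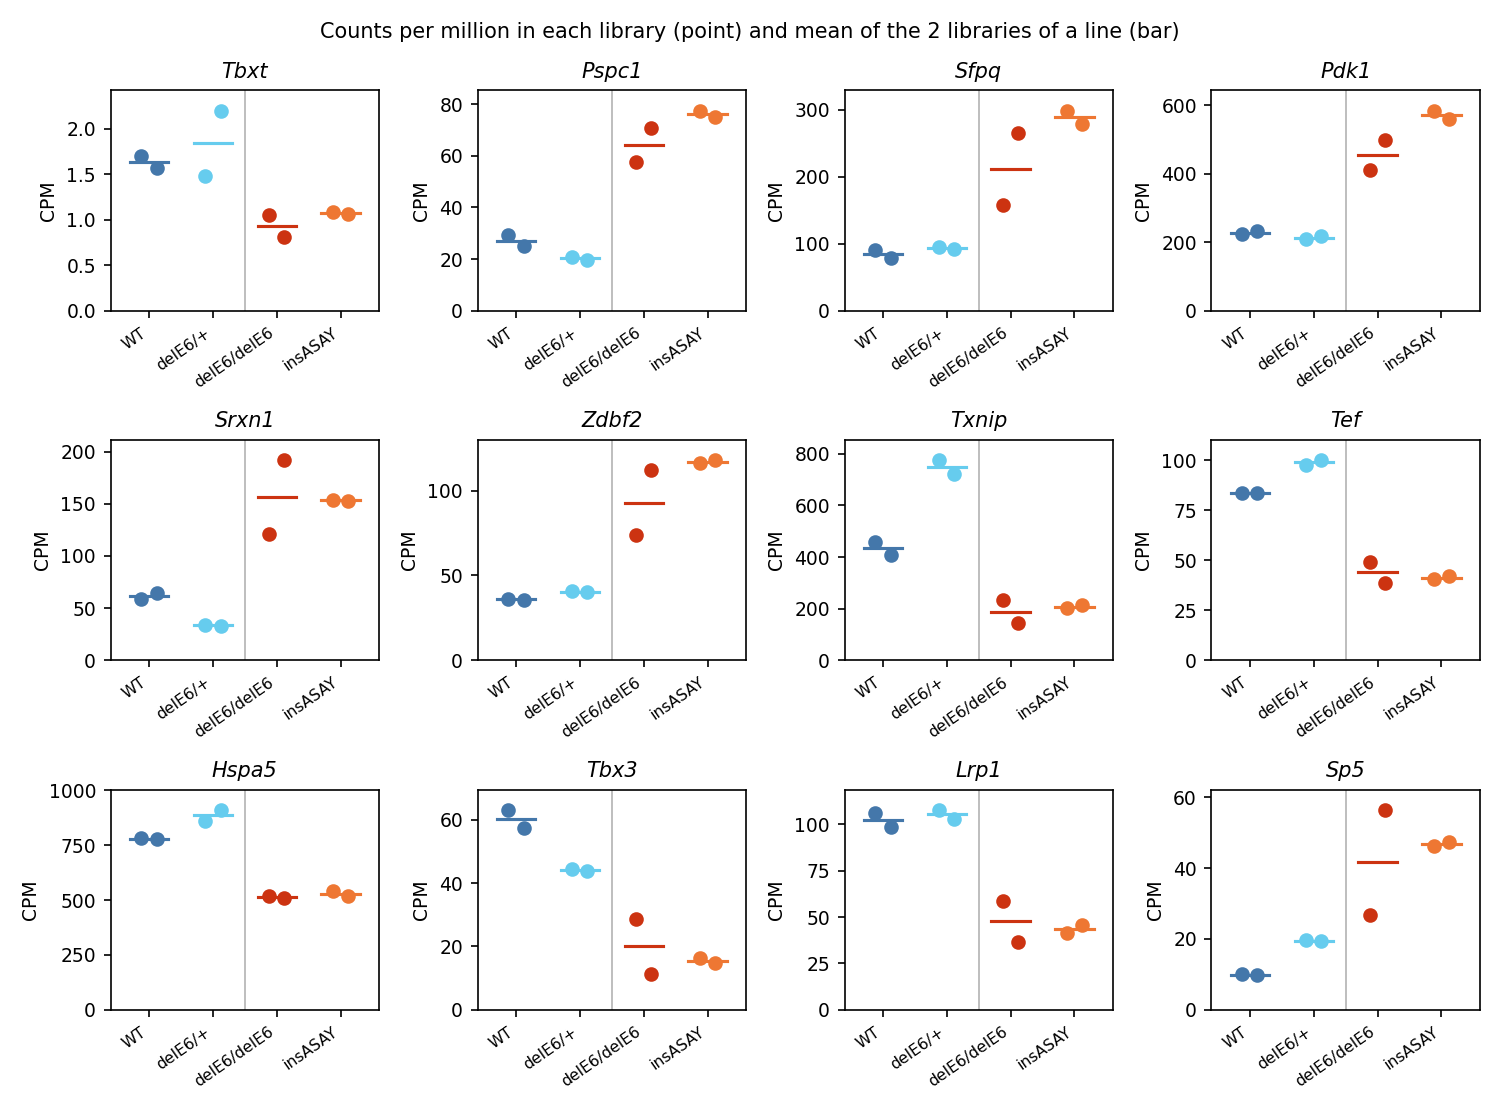
Points give CPM in each of the 8 libraries and short bars the mean of a line's 2 libraries, for 12 genes named in the text, with axes that start at 0. The vertical line parts wild-type and delE6/+ (left) from delE6/delE6 and insASAY/insASAY (right). All 12 are separated genes, so by that definition the 2 sides do not overlap.

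Of 15 Notch pathway genes, 5 (33.3%) were wholly below and 1 (6.67%) above, against 16.9% and 17.3% of all genes tested. Of the 15, 3 (20%) were separated and called below, against 6.47% of all, and 0 above. All 3 were ligands. Dll1 was at 17.3 to 30.7 CPM in homozygous-edited cells against 38.7 to 59 CPM in the other cells (log2 fold change -0.98). Jag1 was at 2.8 to 3.43 CPM in homozygous-edited cells against 4.19 to 6.12 CPM (-0.69), and Jag2 at 72.1 to 80.8 CPM in homozygous-edited cells against 99.5 to 125 CPM (-0.56). Of 17 LIF and Stat3 pathway genes, 6 (35.3%) were wholly below and 1 (5.88%) above. Separated and called were 4 (23.5%) below and 0 above. LIF signalling sustains mouse ES cells through its receptor Lifr and the transcription factor Stat3. For Stat3, homozygous-edited libraries held 63.3 and 53.8 CPM (delE6/delE6) and 40.4 and 41.9 CPM (insASAY/insASAY), against 85 and 83.6 in wild-type and 88 and 89.3 in delE6/+ cells. Stat3 had a fold change of -0.80 on the log2 scale (standard error 0.13), with an edgeR adjusted p = 0.00255 (Benjamini-Hochberg). The insASAY/insASAY values were the lowest. Lifr and the feedback inhibitor Socs2 had log2 fold changes of -0.69 and -0.65. Of 20 genes of the BMP pathway, Id3, an inhibitor of bHLH factors, was above at 2.03 to 5.11 CPM in homozygous-edited cells against 0.649 to 1.71 CPM (1.74), and Smad6 was below (-0.59, and -0.49 without delE6/+ replicate 1). Of 18 Nodal and activin genes, only Fst, which encodes the activin antagonist follistatin, was separated and called, above with a log2 fold change of 1.28. Of 23 FGF and ERK genes, 1 was above, Spred2, an inhibitor of ERK signalling (0.61), and 2 were below, one of them Fgf4. The BMP, Nodal and FGF lists had 5%, 5.56% and 4.35% separated and called above, against 6.91% of all genes tested. Below they had 5%, 0% and 8.7%, against 6.47%. Of 16 retinoic acid genes, 2 (12.5%) were below, among them Crabp1, a retinoic acid binding protein. Its delE6/+ values of 54.3 and 42.1 CPM were far over the wild-type values of 13.6 and 14.5 CPM. Homozygous-edited values of Crabp1 ran from 7.53 to 10.9 CPM (-1.71).

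Genes of the pluripotent state did not move as one group. Of 12 core genes 2 (16.7%) were separated and called above and 1 (8.33%) below. Of 18 naive genes 0 were above and 4 (22.2%) below. Of 19 formative and primed genes 1 (5.26%) was above and 3 (15.8%) below. Over all genes tested the shares were 6.91% above and 6.47% below. L1td1, an RNA-binding protein of ES cells, was above. The level of L1td1 was 42.8 and 46.4 CPM in wild-type and 29 and 30.3 CPM in delE6/+ cells, and 77.6 and 103 CPM in delE6/delE6 and 115 and 111 CPM in insASAY/insASAY cells. On the log2 scale L1td1 changed by 1.45 (standard error 0.174, adjusted p = 0.00095 by edgeR and Benjamini-Hochberg). Dppa2, a chromatin protein of pluripotent cells, was above too (0.95). Sox2 was below, but it lies on chromosome 3, its arms were nearly in contact at 66 and 66.3 CPM, and its call was lost without any 1 library of the 3 edited lines (adjusted p = 0.0661 to 0.12 by edgeR with Benjamini-Hochberg adjustment). Esrrb, a nuclear receptor of naive cells, was at 26.2 to 39.9 CPM in homozygous-edited cells against 52.9 to 59 CPM (-0.72). Tfcp2l1, a target of Stat3, was at 41.5 to 56 CPM in homozygous-edited cells against 61.9 to 91.2 CPM (-0.74). Fgf4, the growth factor that starts the exit from the naive state, was at 2.72 to 5.51 CPM in homozygous-edited cells. Only wild-type cells were far higher, at 20.2 and 17 CPM. In delE6/+ cells Fgf4 was at 5.8 and 5.83 CPM, close to the insASAY/insASAY values of 5.07 and 5.51 CPM. Its call was lost without any 1 of the wild-type, delE6/delE6 or insASAY/insASAY libraries (adjusted p = 0.053 to 0.0811 by edgeR with Benjamini-Hochberg adjustment). Pou3f1 (Oct6), a factor of formative and early neural cells, was above (0.68). The median log2 fold changes were -0.01 for core, -0.23 for naive and -0.08 for formative genes.

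Of 16 neural progenitor genes, 3 (18.8%) were separated and called above and 2 (12.5%) below, against 6.91% and 6.47% of all genes tested. Whether separated or not, 3 were called higher and 5 lower, and the median log2 fold change was -0.61. Neurog3, a proneural factor also known from endocrine pancreas, had a large fold change at a low level. Neurog3 was at 1.08 and 0.708 CPM in wild-type, 0.759 and 0.734 in delE6/+, 1.17 and 3.45 in delE6/delE6 and 9.45 and 8.94 in insASAY/insASAY libraries. Between the arms Neurog3 changed by 2.80 in log2 units, with a standard error of 0.585 (edgeR adjusted p = 0.00658, Benjamini-Hochberg). Both insASAY/insASAY values were over both delE6/delE6 values, and delE6/delE6 replicate 1 lay just over the highest wild-type value. Tubb3, a neuronal tubulin, and Nes, an intermediate filament of neural progenitors, were above (0.79 and 0.76), and Irx3, a homeobox gene, was below (-1.20). Nes lies on chromosome 3, and against wild-type alone it differed by 0.81 in delE6/delE6 but by 0.26 in insASAY/insASAY cells. The call of Nes was lost without the 2 delE6/delE6 libraries or without the 2 delE6/+ libraries. Of 26 Hox genes and cofactors, 6 (23.1%) were below and 0 above, with a median log2 fold change of -0.42. Hoxc13 and Hoxd8 lay under 6 CPM throughout (-0.64 and -0.56).

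Genes of glycolysis and the hypoxia response were more often higher than lower. Of 28 tested genes 7 (25%) were separated and called above and 1 (3.57%) below, against 6.91% and 6.47% of all genes tested. Wholly above were 14 (50%), against 17.3% of all, and the median log2 fold change was 0.24. Pdk1 encodes a kinase that shuts pyruvate out of the mitochondrial cycle. For Pdk1, homozygous-edited libraries held 410 and 499 CPM (delE6/delE6) and 584 and 559 CPM (insASAY/insASAY), against 224 and 232 in wild-type and 208 and 219 in delE6/+ cells. This was a log2 fold change of 1.22 (standard error 0.101, edgeR adjusted p = 0.000688, Benjamini-Hochberg). Its 4 homozygous-edited values were all over 400 CPM and the others all at 232 CPM or less. Ldha encodes lactate dehydrogenase A, which turns pyruvate into lactate. The level of Ldha was 459 and 460 CPM in wild-type and 437 and 453 CPM in delE6/+ cells, and 674 and 956 CPM in delE6/delE6 and 956 and 945 CPM in insASAY/insASAY cells. Ldha thus differed by 0.96 on the log2 scale, with a standard error of 0.104 and a Benjamini-Hochberg adjusted p = 0.000838 in edgeR. Tpi1, a glycolytic enzyme, and Bnip3, a mitophagy receptor induced by hypoxia, were above as well (0.74 and 1.06). Arrdc4, a paralogue of Txnip that also restrains glucose uptake and was chosen after its values were seen, was below at 16.7 to 20.8 CPM in homozygous-edited cells against 30.1 to 54.8 CPM (-1.12).

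Of 27 genes of sterol and fatty acid synthesis, 3 (11.1%) were separated and called below and 0 above. Over all genes tested the shares were 6.47% below and 6.91% above. The median log2 fold change of the 27 was -0.16. Insig1, the sterol sensor that retains SREBP proteins in the endoplasmic reticulum, was below. Insig1 was at 264 and 258 CPM in wild-type, 315 and 317 in delE6/+, 183 and 148 in delE6/delE6 and 137 and 131 in insASAY/insASAY libraries. The difference for Insig1 was -0.95 on the log2 scale (standard error 0.114, adjusted p = 0.000969, edgeR with Benjamini-Hochberg). Dhcr7, the last enzyme of cholesterol synthesis, had a log2 fold change of -0.69. Of 22 genes of the Atf4 response and serine synthesis, 5 (22.7%) were below and 0 above. Ddit3 (CHOP), a transcription factor of that response, had the largest change of these 5. For Ddit3, homozygous-edited libraries held 99.5 and 53.6 CPM (delE6/delE6) and 33.8 and 37.8 CPM (insASAY/insASAY), against 160 and 154 in wild-type and 173 and 177 in delE6/+ cells. Ddit3 had a fold change of -1.56 on the log2 scale (standard error 0.293), with an edgeR adjusted p = 0.00419 (Benjamini-Hochberg). The insASAY/insASAY values were the lowest, and delE6/delE6 replicate 1 the highest of its arm. Slc3a2, the heavy chain of amino acid transporters, and Nupr1, a stress-induced nuclear protein, were below too (-0.65 and -0.81).

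The next 3 groups were assembled after values were seen, and their counts are a description. For comparison, 6.47% of all genes tested were separated and called below and 6.91% above, and 16.9% were wholly below and 17.3% above. Of 26 genes of protein folding and stress in the endoplasmic reticulum, 9 (34.6%) were separated and called below and 0 above. Wholly below were 16 (61.5%), and the median log2 fold change was -0.33. Hspa5 (BiP) is the main chaperone of that compartment. The level of Hspa5 was 781 and 779 CPM in wild-type and 859 and 913 CPM in delE6/+ cells, and 519 and 511 CPM in delE6/delE6 and 542 and 517 CPM in insASAY/insASAY cells. On the log2 scale Hspa5 changed by -0.67 (standard error 0.0604, adjusted p = 0.000688 by edgeR and Benjamini-Hochberg). Calr encodes calreticulin, which folds glycoproteins. Calr was at 1026 and 1029 CPM in wild-type, 1058 and 1071 in delE6/+, 695 and 600 in delE6/delE6 and 659 and 643 in insASAY/insASAY libraries. Between the arms Calr changed by -0.69 in log2 units, with a standard error of 0.0532 (edgeR adjusted p = 0.000688, Benjamini-Hochberg). Both chaperones were among the most abundant transcripts named here, and, as in all separated genes, their arms did not overlap. Hyou1, a chaperone, and Herpud1, which takes part in degrading misfolded proteins, had log2 fold changes of -0.69 and -0.95. Of 17 antioxidant genes linked to the factor Nrf2, 5 (29.4%) were above and 0 below, with a median of 0.34. Beside Srxn1 these included Hmox1, heme oxygenase (0.88), Ptgr1, which reduces reactive lipids (1.45), and Keap1, the inhibitor of Nrf2 (1.06). Of 14 tubulin genes, 6 (42.9%) were above and 0 below, 11 (78.6%) were wholly above, and the median was 0.44. Tubb4b was at 424 to 513 CPM in homozygous-edited cells against 213 to 288 CPM (0.96).

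Of 15 paraspeckle components, a list assembled after values were seen, 5 (33.3%) were separated and called above and 0 below. Wholly above were 11 (73.3%), and the median log2 fold change was 0.40. Over all genes tested, 6.91% were separated and called above, 6.47% below, 17.3% wholly above and 16.9% wholly below. Sfpq, a partner of Pspc1 in paraspeckles and in splicing, was chosen after its values were seen. For Sfpq, homozygous-edited libraries held 158 and 265 CPM (delE6/delE6) and 299 and 279 CPM (insASAY/insASAY), against 90 and 78.1 in wild-type and 95.2 and 92.4 in delE6/+ cells. This was a log2 fold change of 1.49 (standard error 0.173, edgeR adjusted p = 0.000863, Benjamini-Hochberg). All 4 values lay above those of the other arm, with delE6/delE6 replicate 1 the lowest of them. The RNA Neat1 itself was wholly above but under the fold threshold, with a log2 fold change of 0.36. Of 11 Srsf splicing factors, also grouped after values were seen, 5 (45.5%) were above and 0 below, with a median of 0.50. Srsf2, which binds exonic splicing enhancers, was at 232 to 351 CPM in homozygous-edited cells against 153 to 158 CPM (0.98), and Srsf1 and Srsf5 had log2 fold changes of 0.87 and 0.85. Of 20 Hnrnp genes, which encode nuclear RNA-binding proteins and were grouped after values were seen, 10 (50%) were wholly above and 2 (10%) below. Only 1 (5%) was separated and called above and 0 below, with a median of 0.21. Mat2a, which makes the methyl donor SAM, had a log2 fold change of 1.88. Dgcr8, which with Drosha cuts primary microRNA transcripts, was at 16 to 36.9 CPM in homozygous-edited cells against 9.02 to 10.4 CPM (1.60). Clk4, a kinase of Srsf proteins, went the other way (-0.83). These genes were chosen after their values were seen.

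Host genes of small nucleolar RNAs, also grouped after values were seen, were more often lower than higher. Of 13 tested, 5 (38.5%) were separated and called below and 2 (15.4%) above, against 6.47% and 6.91% of all genes tested. The list's median log2 fold change was -0.33. Gas5, which is named for its level in growth-arrested cells, was at 179 to 229 CPM in homozygous-edited cells against 300 to 308 CPM (-0.63). Snhg12 and Snhg15 had log2 fold changes of -0.78 and -0.84. The long nuclear RNA Malat1 was at 228 to 349 CPM in homozygous-edited cells against 438 to 593 CPM (-0.83), and Eif4a2, a translation initiation helicase, changed by -0.72 on the log2 scale, and both were chosen after their values were seen. The 87 cytosolic ribosomal protein genes gave a different picture: 49 (56.3%) were wholly below and 2 (2.3%) above, against 16.9% and 17.3% of all genes. Yet 0 of the 87 passed both thresholds of the edgeR test. At an unadjusted p under 0.05, 54 of them were lower and 2 higher. Their median log2 fold change was -0.15, and their summed level was 85171 to 89244 CPM in homozygous-edited and 94524 to 100580 CPM in other libraries. The 91 nuclear-encoded subunits of the electron transport chain had 36 genes (39.6%) wholly below, 6 (6.59%) above and 1 called below. The median of the 91 was -0.12.

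Zinc finger genes were more often higher than lower. Of 371 tested genes whose symbol starts with Zfp, grouped after values were seen, 86 (23.2%) were separated and called above and 8 (2.16%) below. Over all genes tested the shares were 6.91% and 6.47%. The median log2 fold change of the Zfp genes was 0.22. Many genes of this family carry a KRAB domain and silence transposable elements. Zfp719 is an example on chromosome 7. The level of Zfp719 was 4.76 and 4.4 CPM in wild-type and 5.31 and 3.88 CPM in delE6/+ cells, and 9.24 and 14.7 CPM in delE6/delE6 and 15.8 and 14.1 CPM in insASAY/insASAY cells. Zfp719 thus differed by 1.55 on the log2 scale, with a standard error of 0.175 and a Benjamini-Hochberg adjusted p = 0.000838 in edgeR. Zfp345 and Zfp933, on chromosomes 2 and 4, had log2 fold changes of 1.51 and 1.65. Reads of near-identical members of such clusters may be split or lost by counting of unique reads, so single Zfp values are less certain than those of single-copy genes.

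Genes of the circadian clock, grouped after values were seen, had 7 of 16 tested genes (43.8%) separated and called below and 1 (6.25%) above. Over all genes tested the shares were 6.47% and 6.91%. The median log2 fold change of the clock genes was -0.71. Per1 and Cry1 encode proteins that repress their own activators, CLOCK and BMAL1. Per1 was at 72.2 and 70.2 CPM in wild-type, 90.5 and 89.9 in delE6/+, 48 and 40.8 in delE6/delE6 and 31.8 and 30.5 in insASAY/insASAY libraries. The difference for Per1 was -1.10 on the log2 scale (standard error 0.152, adjusted p = 0.00143, edgeR with Benjamini-Hochberg). For Cry1, homozygous-edited libraries held 60.4 and 49.5 CPM (delE6/delE6) and 46.8 and 47.8 CPM (insASAY/insASAY), against 69.6 and 73.4 in wild-type and 109 and 108 in delE6/+ cells. The log2 fold change of Cry1 was -0.82. Nr1d1 (REV-ERB alpha), a repressor of Arntl, and Dbp, a PAR bZIP factor like Tef, had log2 fold changes of -0.83 and -0.87. Arntl, which encodes BMAL1, was the one above (0.67). The delE6/+ values were the highest for Per1, Cry1, Tef, Dbp and Nr1d1. Against wild-type alone Dbp differed by -0.40 in both homozygous-edited lines, and Cry1 by -0.38 in delE6/delE6 and -0.60 in insASAY/insASAY cells. In the same order Nr1d1 differed by -0.44 and -0.88, Per1 by -0.68 and -1.19, and Tef by -0.93 and -1.02. The calls of Cry1 and Dbp were lost without the 2 delE6/+ libraries or without the 2 insASAY/insASAY libraries. That of Dbp was also lost without the 2 delE6/delE6 libraries. The time of day of harvest is not given in the sources used here.

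CLOCK and BMAL1 bind the E-box CACGTG, and the 250 bases before an annotated start of Per1, Cry1 and Tef each hold this motif. Per1 and Cry1 are shown with it in capitals (RefSeq, GRCm38.p6). Per1 lies at chr11:69098699-69098948 on the plus strand and Cry1 at chr10:85185055-85185304 on the minus strand.
Per1: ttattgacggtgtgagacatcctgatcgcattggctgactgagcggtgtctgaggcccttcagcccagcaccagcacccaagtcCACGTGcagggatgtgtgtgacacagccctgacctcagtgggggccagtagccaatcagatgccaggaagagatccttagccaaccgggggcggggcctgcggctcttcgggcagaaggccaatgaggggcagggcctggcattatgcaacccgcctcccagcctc
Cry1: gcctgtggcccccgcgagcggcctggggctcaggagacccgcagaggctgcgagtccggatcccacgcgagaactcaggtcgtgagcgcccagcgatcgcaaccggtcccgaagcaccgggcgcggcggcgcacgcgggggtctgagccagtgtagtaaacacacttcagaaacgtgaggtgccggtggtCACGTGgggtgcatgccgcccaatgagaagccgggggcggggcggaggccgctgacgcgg
The motif reads the same on both strands and starts 166 bases before an annotated start of Per1 and 60 bases before that of Cry1. The stretch shown for Per1 lies inside the span of the gene in GENCODE M21, 69095217 to 69109960. It was found in 5 of the 14 tested clock genes with a promoter in the table. Of separated and called genes below, 14.7% of 744 held it, against 8.83% of 827 above and 9.97% of all 11238 tested. The median GC content of these promoters was 61.2% below, 58.4% above and 60% in all. The motif search was chosen after values were seen, and these shares are a description.

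Matrix and guidance genes were more often lower than higher. Of 28 matrix and adhesion genes, 8 (28.6%) were separated and called below and 2 (7.14%) above, against 6.47% and 6.91% of all genes tested. Wholly below were 11 (39.3%), against 16.9% of all, and the median log2 fold change was -0.19. Col18a1, a basement membrane collagen, is an example. The level of Col18a1 was 728 and 798 CPM in wild-type and 769 and 863 CPM in delE6/+ cells, and 547 and 470 CPM in delE6/delE6 and 424 and 430 CPM in insASAY/insASAY cells. Col18a1 had a fold change of -0.75 on the log2 scale (standard error 0.0878), with an edgeR adjusted p = 0.000863 (Benjamini-Hochberg). Lamb1, a laminin chain, and Col4a2, a chain of collagen IV, were below as well (-0.60 and -0.78). Col4a1, the partner of Col4a2, had a log2 fold change of -0.54, and -0.45 without delE6/+ replicate 2. Of 22 axon guidance genes, 8 (36.4%) were below and 0 above, 10 (45.5%) were wholly below, and the median was -0.61. Plxna2, a semaphorin receptor, was at 6.49 to 8.31 CPM in homozygous-edited cells against 10.9 to 20.9 CPM (-1.17). Unc5b, a netrin receptor, had a log2 fold change of -0.60. The ephrin ligands Efna1 and Efna3 had log2 fold changes of -0.84 and -0.86, and both lie on chromosome 3.

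Markers of other cell types were examined as whole lists. Among all genes tested 6.47% were separated and called below and 6.91% above. Of 9 fibroblast markers tested, 4 (44.4%) were below and 0 above, Col1a1, Col1a2, Fbn1 and Pdgfrb. The summed level of the 9 was 170 to 425 CPM in homozygous-edited and 263 to 478 CPM in other libraries, so the sums overlapped, with the lowest in insASAY/insASAY libraries. Of those 4, Fbn1 fell under the fold threshold, to -0.43 to -0.49, without any 1 of the insASAY/insASAY or delE6/+ libraries. The fibroblast markers Postn and Lum had 0 to 2 and 0 to 6 reads. Of 10 endoderm markers 2 (20%) were below and 0 above (the basement membrane genes Col4a1 and Lama1). The sums of the 10 were 559 to 636 against 561 to 654 CPM. Ttr was at 0 reads in every library and Afp at 1 to 4. Of 11 trophoblast markers 3 (27.3%) were below and 1 (9.09%) above, with sums of 249 to 384 against 134 to 276 CPM. Tpbpa was at 0 reads in every library. Of 9 markers of the 2-cell-like state, 0 were separated and 0 had an unadjusted p under 0.05 in edgeR, and Duxf3 was at 0 reads in every library. In a bulk library fewer cells of a type and less RNA per cell cannot be told apart, and the part of these cell types in the results was not tested.

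Epigenetic groups differed among themselves. Of 31 imprinted genes, 5 (16.1%) were separated and called above and 1 (3.23%) below, against 6.91% and 6.47% of all genes tested. The list's median log2 fold change was 0.18. Rian and Mirg are maternally expressed RNAs of the Dlk1-Dio3 cluster. Rian was at 146 and 147 CPM in wild-type, 146 and 158 in delE6/+, 348 and 394 in delE6/delE6 and 218 and 207 in insASAY/insASAY libraries. On the log2 scale Rian changed by 0.97 (standard error 0.19, adjusted p = 0.0051 by edgeR and Benjamini-Hochberg). The delE6/delE6 values were higher than the insASAY/insASAY values. Mirg changed by 1.18 and Ndn, a paternally expressed gene, by 0.55, and the latter was at 0.50 without insASAY/insASAY replicate 2. Igf2r, which clears IGF2, was below (-0.58, and -0.45 without delE6/delE6 replicate 2). Of 18 germline genes that DNA methylation silences in somatic cells, 8 (44.4%) were below and 1 (5.56%) above, with a median of -0.51. Ddx4, a germ cell RNA helicase, was at 22.8 to 29.5 CPM in homozygous-edited cells against 36 to 43.8 CPM (-0.71), and Brdt, a bromodomain protein of spermatocytes, was at 3.2 to 7.17 CPM in homozygous-edited cells against 9.81 to 11.4 CPM (-1.11). Sycp1 and Mael had log2 fold changes of -0.76 and -0.72. Of 10 DNA methylation enzymes 2 (20%) were below, Tet2 and Uhrf2. Tet2 oxidizes methylated cytosine and lies on chromosome 3 (-1.12), and Uhrf2 had a log2 fold change of -0.56, but -0.48 without either delE6/+ library. Of 21 chromatin regulators 1 (4.76%) was below, Ezh1, an enzyme that methylates histone H3 (-0.80). Of 43 histone genes, grouped after values were seen, 10 (23.3%) were below and 1 (2.33%) above.

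Of 21 p53 targets 4 (19%) were wholly above and 3 (14.3%) below, against 17.3% and 16.9% of all genes tested. Separated and called were 1 above, Trp53 itself (0.52), and 1 below, Eda2r (-0.58). Of 22 cell cycle regulators 8 (36.4%) were wholly above and 2 (9.09%) below. Of these 22, 1 was separated and called above, Ccne2, a cyclin of the start of DNA replication (0.95), and 1 below. In both directions the separated and called share was 4.76% of the p53 list and 4.55% of the cell cycle list. Over all genes tested it was 6.91% above and 6.47% below. Of 19 immediate early genes 1 (5.26%) was above, Egr1 (0.69), and 0 below. Of 37 interferon-stimulated genes, grouped after values were seen, 7 (18.9%) were separated and called above and 5 (13.5%) below. Irgm1 and Irgm2 encode immunity-related GTPases. For Irgm2, homozygous-edited libraries held 11.9 and 20.2 CPM (delE6/delE6) and 23.3 and 25.5 CPM (insASAY/insASAY), against 7.4 and 7.01 in wild-type and 5.27 and 4.98 in delE6/+ cells. Between the arms Irgm2 changed by 1.71 in log2 units, with a standard error of 0.232 (edgeR adjusted p = 0.00134, Benjamini-Hochberg). Gbp4 and Oasl2, induced by interferons, had log2 fold changes of 2.86 and 1.90. Gbp4 was scarce, at 1.05 to 2.95 CPM in homozygous-edited and 0.0816 to 0.541 CPM in other libraries. Both genes were lower in delE6/+ than in wild-type cells, by -2.03 and -1.58. Against wild-type alone Gbp4 differed by 1.85 in delE6/delE6 and 2.48 in insASAY/insASAY cells, and Oasl2 by 1.15 and 1.48. Tap1, the peptide transporter of antigen presentation, went the other way (-0.82). Of 269 solute carrier genes, also grouped after values were seen, 40 (14.9%) were below and 15 (5.58%) above, with a median of -0.12.

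**Figure D4:**
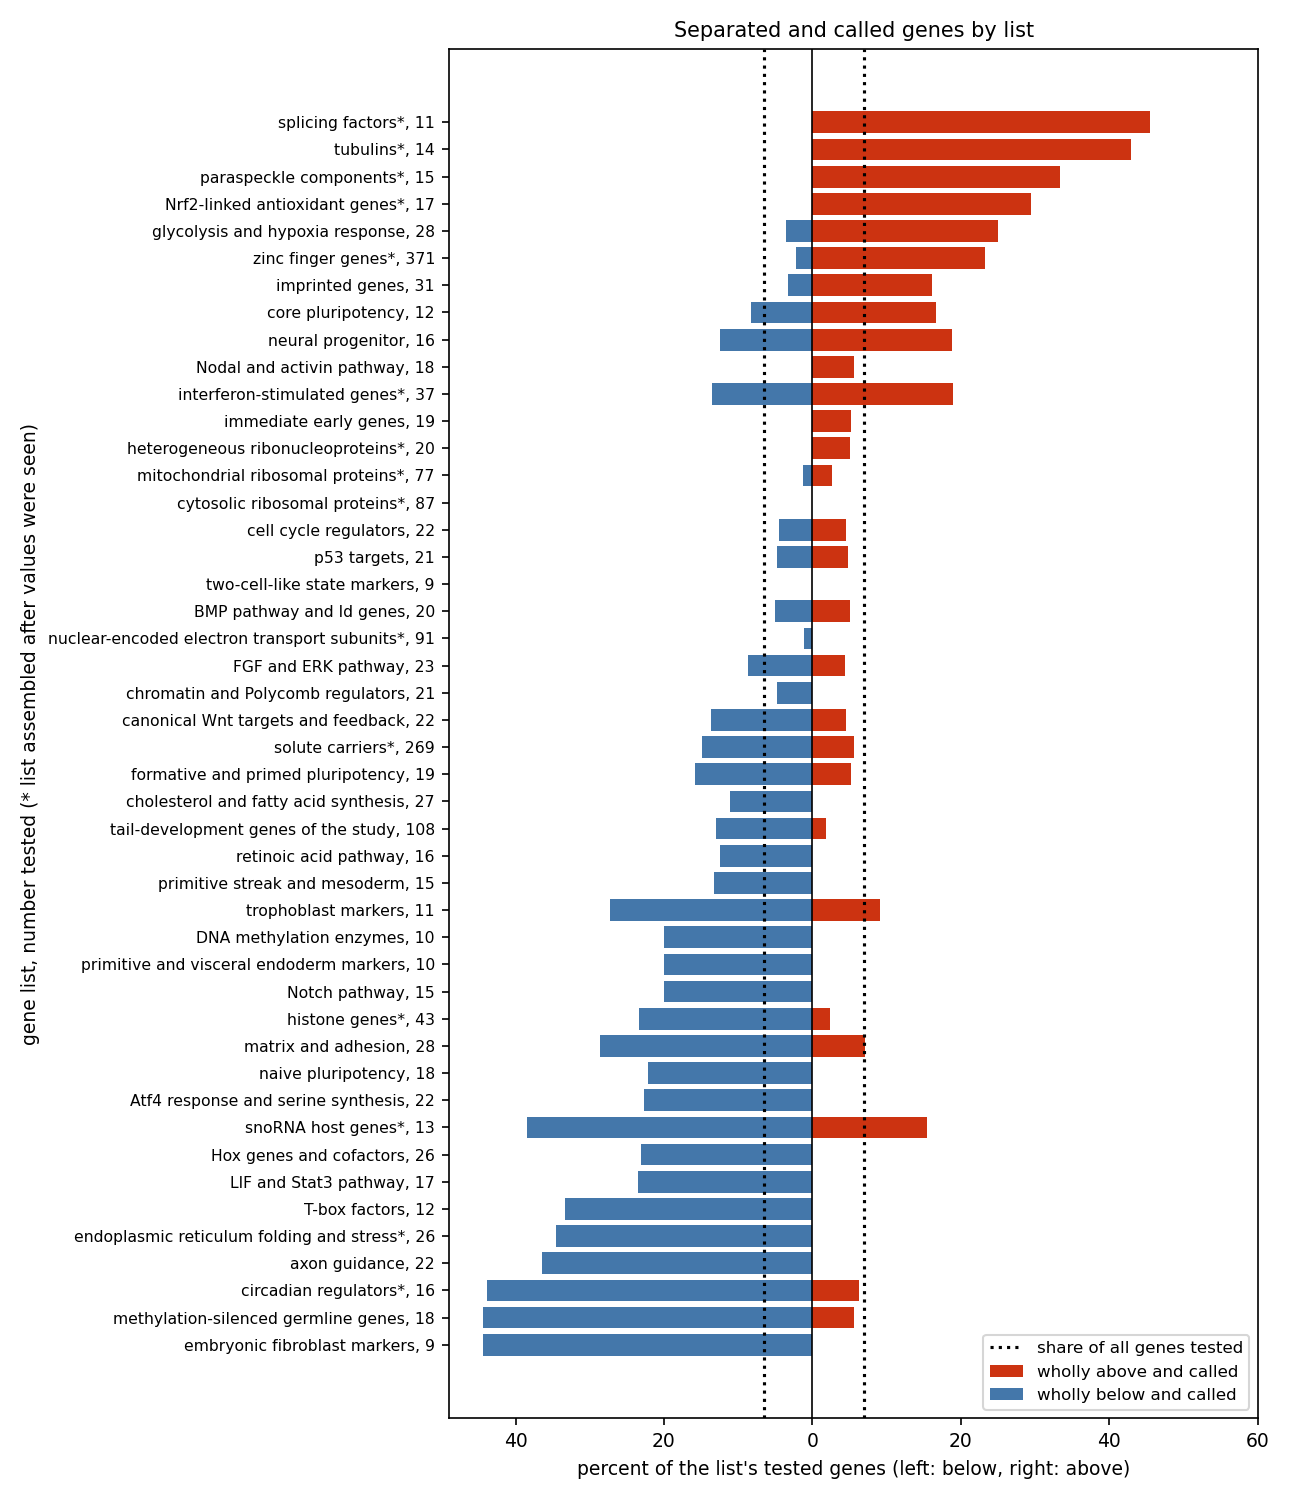
Bars give the percent of each list's tested genes that were separated and called above (right, red) or below (left, blue) in homozygous-edited cells, and the number after each name is the number tested. Dotted lines mark the shares of all genes, 6.91% above and 6.47% below. Asterisks mark lists assembled after values were seen. Splicing factors reach 45.5% above, and fibroblast and germline markers 44.4% below.

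Genes that the study linked to Tbxt and to tails were counted too. Of 108 tested genes of tail development, 2 were separated and called above and 14 below (1.85% and 13%), against 6.91% and 6.47% of all. The median log2 fold change of the 108 was -0.11. Cbs, an enzyme of homocysteine metabolism, was at 7.62 to 12.8 CPM in homozygous-edited cells against 18.3 to 21.7 CPM (-1.12), and Lepr, the leptin receptor, was at 3.06 to 5.79 CPM in homozygous-edited cells against 7.64 to 9.94 CPM (-1.12). Of 426 tested genes that the study named as Tbxt targets, 83 (19.5%) were above and 68 (16%) below. The study kept those bound targets that differed from wild-type in these same libraries, so this count is not independent evidence.

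Each homozygous line was also set against each other line, in 1 edgeR fit with a coefficient per genotype. These 4 comparisons share libraries. Genes called higher in all 4 pairs numbered 475 (2.91% of tested genes), and lower in all 4, 362 (2.22%). Among separated and called genes, 474 of 1128 above (42%) and 362 of 1056 below (34.3%) were called in all 4. Those genes were chosen from the same libraries, so the shared direction of the 4 pairs follows from the choice. These shares and the medians below are a description. The median log2 fold change of the genes above was 0.66 for delE6/delE6 and 0.80 for insASAY/insASAY against wild-type, and 0.73 and 0.90 against delE6/+. For the genes below the medians were -0.60, -0.71, -0.80 and -0.89 in the same order. Pspc1 changed by 1.25, 1.49, 1.66 and 1.90 in these 4 pairs, and Calr by -0.67, -0.66, -0.72 and -0.71. Calr therefore had nearly the same difference in each pair, and Pspc1 differed more from delE6/+ than from wild-type.

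The lines within an arm also differed. Over all genes 865 (5.3%) were called between insASAY/insASAY and delE6/delE6 and 2246 (13.8%) between delE6/+ and wild-type. Of the separated and called genes above, 74 (6.56%) were called between insASAY/insASAY and delE6/delE6, and 66 of them were higher in insASAY/insASAY. Of those below, 57 (5.4%) were, and 47 of them were lower in insASAY/insASAY. Between delE6/+ and wild-type, 139 (12.3%) of the genes above were called, with 109 lower in delE6/+, and 193 (18.3%) of the genes below, with 174 higher in delE6/+. Where the values of each line are given above, as for Sdk2, Ngfr and Crabp1, the part of delE6/+ cells can be read from them. Where only an arm's range or a fold change is given, it cannot. Among such genes, the log2 fold change of delE6/+ over wild-type was 0.92 for Plxna2 and -0.79 for Ptgr1, but -0.01 for Unc5b. On chromosome 3, 93 of 803 tested genes (11.6%) were separated and called below, while 33 (4.11%) were above. The median log2 fold change of that chromosome was 0.33 in delE6/+ over wild-type, 0.01 in delE6/delE6 and -0.01 in insASAY/insASAY over wild-type. On chromosome 8, 82 of 835 genes (9.82%) were below, with a median of 0.06 in delE6/+ over wild-type.

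Separated and called genes above had a median span of 13566 bases and those below 26535, against 19258 for all tested genes. The median GC content of the longest transcript was 49.6% above, 51.5% below and 50% in all, and its median length 2976, 3440 and 3052 bases. Protein-coding genes made up 85.4% above and 88.4% below, against 85.1% in all, and the median level was 8.33 and 8.58 CPM against 17 CPM. No correction for length or GC content was made.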

How the data were processed

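Poly(A) RNA of 8 libraries (4 genotypes, 2 libraries each, day 1) was sequenced with a directional kit. The authors mapped reads to mm10 with STAR 2.7.2a and deposited read counts per gene for each strand setting. The counts of the strand opposite to the first read were used here, without STAR's 4 summary lines. Libraries were grouped by their labelled genotype. The labels of the insASAY libraries do not state that both alleles are edited, which was taken from the study's methods. Genes were filtered with filterByExpr (minimum count 10, total 15) and scaled with TMM. Of 48440 genes, 16314 were tested with edgeR 4.0.16 (quasi-likelihood test, Benjamini-Hochberg adjustment) in R 4.3.3. The fit was first run on simulated counts of 8 independent libraries, without differences between the lines of an arm. That run could not show how often such differences give false calls. The arms were compared over all 8 libraries, and pairs of lines in a fit with a coefficient per genotype. DESeq2 1.42.0 served as an alternative. Separated genes have all 4 scaled CPM values above, or all below, the other 4.

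Named genes were Tbxt, Wnt3a, Msgn1 and Mixl1, the 15 widest gaps in each direction (mean of at least 2 CPM, no Gm or Rik models) and up to 4 separated and called genes per list with the smallest adjusted p. A few genes that this rule names are not reported here. Further genes are said to be chosen after their values were seen. All members and lists were chosen with earlier results of these data known. Reads on genes were 24618587 to 28445952 per library. The p-values measure the spread between libraries, and only the delE6/delE6 libraries are stated to come from different clones. Same-numbered libraries did not deviate together (r from -0.1 to 0.0673), so no block was used. Promoter sequences are from RefSeq (GRCm38.p6), which held 119 of the 144 named genes. Exon positions are from GENCODE M21.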

Additional observations from a re-analysis of the deposited data

Results flagged for a closer look

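Among the 4 libraries of an arm, a library was marked when its distance to the nearest of the others, taken as a share of the arm's range, exceeded Dixon's critical value for 4 samples. For 144 named genes and both arms, 20 of 288 groups were marked (6.94%). With 4 independent values chance would mark about 1 in 20. An arm holds 2 lines of 2 libraries, and the genes were chosen from these same libraries, so that rate need not hold. Of the 20 marked groups, 12 were delE6/delE6 replicate 1 and 4 were delE6/delE6 replicate 2. No explanation was tested.

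In delE6/delE6 replicate 1 the highest value of the homozygous-edited arm was that of Tfcp2l1 (56 CPM, the others up to 43.1, gap over range 0.894), Hoxc13 (4.7, up to 3.28, 0.943) and Hoxd8 (2.84, up to 2.2, 0.924). The same held for Tbx4 (5.31 CPM, the others up to 3.03, 0.934), Ddx4 (29.5, up to 23.8, 0.850) and Plxna2 (8.31, up to 6.79, 0.838). It also held for Ezh1 (55.7 CPM, up to 46, 0.837), Gas5 (229, up to 186, 0.855) and Eif4a2 (451, up to 359, 0.909). All 9 genes were lower in homozygous-edited cells, so this library lay nearer the other arm. That library had the lowest value for Zdbf2 (73.8 CPM, the others from 112, 0.848), Trp53 (138, from 158, 0.909) and Ldha (674, from 945, 0.959), which were higher in homozygous-edited cells.

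In delE6/delE6 replicate 2 the lowest values were those of Sox2 (47.4 CPM, the others from 65.6, 0.976), Sfrp1 (13.2, from 20.6, 0.837), Tbxt (0.808, from 1.05, 0.858) and Arrdc4 (16.7, from 20.2, 0.842).

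Among the other libraries, wild-type replicate 1 was highest for Neurog3 (1.08 CPM, the others up to 0.759, 0.865). The delE6/+ replicate 2 library was highest for Rian (158 CPM, up to 147, 0.884) and lowest for Nupr1 (85.4, from 92.8, 0.852). The delE6/+ replicate 1 library was highest for Gas5 (308 CPM, up to 301, 0.934).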

How the results depend on the processing

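No named gene changed direction under any alternative run. The named genes that were tested are all wholly separated in these same libraries, so this outcome was largely fixed in advance. With each library left out in turn, 963 to 1513 genes were called higher and 874 to 1463 lower, 2940 to 3777 lay wholly above and 2915 to 3646 below, and 942 to 1489 above and 864 to 1440 below met both criteria, with the highest counts without delE6/delE6 replicate 1. Scaling with DESeq2 size factors, the DESeq2 Wald test, both other filters on low counts, unstranded counts, the fit per genotype and leaving out chromosome 3 kept each of these counts within 1.5 times. With counts summed per genotype, 0 genes were called in either direction and 4602 lay wholly above and 4719 below, since fewer values have to be separated. TREAT, which tests against a log2 fold change of 0.5, called 160 higher and 102 lower, all of them separated. Without the 2 wild-type libraries 4811 lay above and 4920 below, and 1816 and 1751 met both criteria. Without the 2 delE6/delE6 libraries 4615 lay above and 4635 below, and without the 2 delE6/+ libraries 4359 and 4341. Without the 2 insASAY/insASAY libraries 544 were called higher and 462 lower, all of them separated. The cause was not tested. With the replicate number as a replicate block, 1161 genes were called higher and 1096 lower, 1072 and 1013 of them separated, and of the 144 named genes Fbn1 and Sox2 lost their call. Depth limits Tbxt, at 22 to 54 reads, and genes under 1 CPM.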
